A study of Homo sapiens with 6 samples.

Results

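The transcripts described here encode the HLA class I surface molecules and the proteins that supply them with peptide. They are 9 of the 21857 genes in the deposited count and FPKM tables and were taken by symbol: the heavy chains HLA-B, HLA-C and HLA-E, the light chain B2M, the peptide transporter subunits TAP1 and TAP2, and the immunoproteasome subunits PSMB8, PSMB9 and PSMB10. RNA sequencing was done on MV4;11, an established human acute myeloid leukemia line of myelomonocytic type whose labelled genotype is FLT3-ITD MLL-AF4. All 6 libraries came from this 1 line, grown in RPMI1640 with serum. The 3 control libraries received no FKA and the 3 FKA libraries received 10 µg/ml for 48 h. FKA is flavokawain A, a chalcone of the kava plant, which the study examined for growth arrest of leukemia cells. The labels name batches 1, 2 and 3, each with 1 control and 1 FKA library, and do not say whether libraries came from separate cultures, so p-values measure the spread between these libraries, which may be technical. Control 1 to 3 and FKA 1 to 3 below are numbered by batch.

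HLA class I molecules show short peptides from inside the cell to CD8+ T cells. A heavy chain folds with beta-2 microglobulin in the endoplasmic reticulum, where the TAP1-TAP2 heterodimer pumps in peptides cut by the proteasome in the cytosol. Interferons raise the transcription of most of these genes, among them 3 proteasome subunits that replace the constitutive catalytic ones, so that the assembled immunoproteasome cuts more peptides with ends that suit class I grooves. HLA-B and HLA-C present to T cells and serve as ligands of killer-cell receptors, while HLA-E mostly carries peptides from the leader sequences of other class I chains and is read by the NKG2A receptor. In leukemia, the level of class I bears on how T cells and natural killer cells see the blast.

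The start regions of these genes differ in their matches to a few short patterns, and 6 of them are shown because their genes went different ways with FKA. RefSeq start regions on build GRCh38.p14 were at hand for 8 of the 9 genes, in 10 windows, with HLA-E the gene without one. Each line gives the 250 bases before the start of transcription, 5′ to 3′ along the gene, and the PSMB8 line runs 6 bases past its second start. The windows are chr6:31357180-31357429 on the minus strand for HLA-B, chr15:44711267-44711516 on the plus strand for B2M, chr6:32853705-32853954 on the minus strand for TAP1, chr6:32853942-32854191 on the plus strand for PSMB9, chr6:32838740-32838989 on the minus strand for TAP2 and chr6:32844042-32844297 on the minus strand for PSMB8. Capitals mark matches to GAAANNGAAA, the core of the interferon-stimulated response element, to GGGNNTTNCC, an NF-kappaB-type site, and to TGACG followed by ATTGG, which here stand for the X2 and Y boxes bound by the class I enhanceosome.
HLA-B: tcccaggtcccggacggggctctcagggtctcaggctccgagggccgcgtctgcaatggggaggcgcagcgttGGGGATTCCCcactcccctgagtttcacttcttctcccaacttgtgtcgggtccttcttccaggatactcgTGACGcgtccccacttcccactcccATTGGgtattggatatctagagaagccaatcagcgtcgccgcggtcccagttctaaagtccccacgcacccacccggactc
B2M: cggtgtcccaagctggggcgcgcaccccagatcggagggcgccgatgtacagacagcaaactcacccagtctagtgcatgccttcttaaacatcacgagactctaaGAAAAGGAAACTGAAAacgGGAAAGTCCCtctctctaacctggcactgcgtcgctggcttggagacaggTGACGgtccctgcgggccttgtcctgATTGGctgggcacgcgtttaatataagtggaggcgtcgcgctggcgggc
TAP1: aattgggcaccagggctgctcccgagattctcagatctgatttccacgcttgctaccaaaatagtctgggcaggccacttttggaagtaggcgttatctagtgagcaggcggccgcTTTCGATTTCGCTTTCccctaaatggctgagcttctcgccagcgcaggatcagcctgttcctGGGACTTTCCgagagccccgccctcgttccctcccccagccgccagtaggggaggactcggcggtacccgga
PSMB9: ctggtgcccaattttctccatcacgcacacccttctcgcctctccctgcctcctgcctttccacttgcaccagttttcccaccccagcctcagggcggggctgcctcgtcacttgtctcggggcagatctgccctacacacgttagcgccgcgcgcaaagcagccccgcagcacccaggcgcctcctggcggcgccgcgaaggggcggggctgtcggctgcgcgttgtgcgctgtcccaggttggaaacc
TAP2: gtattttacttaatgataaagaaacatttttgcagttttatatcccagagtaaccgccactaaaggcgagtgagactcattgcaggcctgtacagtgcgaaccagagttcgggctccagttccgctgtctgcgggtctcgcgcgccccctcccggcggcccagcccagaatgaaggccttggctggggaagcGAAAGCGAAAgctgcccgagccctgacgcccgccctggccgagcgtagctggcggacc
PSMB8: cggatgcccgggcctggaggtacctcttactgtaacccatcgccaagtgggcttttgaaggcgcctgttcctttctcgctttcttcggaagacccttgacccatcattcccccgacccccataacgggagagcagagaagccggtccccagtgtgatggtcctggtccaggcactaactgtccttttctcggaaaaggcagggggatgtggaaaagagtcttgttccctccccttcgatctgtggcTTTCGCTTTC

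Motifs were searched on both strands of windows of 300 bases, from 250 before to 50 after each start, and compared with all 35116 RefSeq windows of that length. The pair of TGACG and ATTGG at a distance of 18 to 24 bases stood in HLA-B, HLA-C and B2M, with 20, 20 and 21 bases between its parts, and in 0.316% of all windows. In HLA-B the pair ran from position -106 to -77 counted from the start, and in B2M from -75 to -45. The pair was put together after these sequences had been read, and its ATTGG is also a CCAAT box on the other strand, a motif found in 34.6% of windows. GAAANNGAAA stood in 3.57% of windows and, among these genes, in TAP2 at -58 to -49, in PSMB10 at -21 to -12, in the TAP1 line as 2 overlapping matches between -134 and -119, in B2M as 2 overlapping matches between -144 and -129, and at -4 to 6 of the second PSMB8 start. No match to it lay in the windows of HLA-B, HLA-C, PSMB9, the first PSMB8 start or the second TAP1 start. The 2 TAP1 matches lie between the TAP1 and PSMB9 starts and fall outside the PSMB9 window only because of its length. Looser forms of the element were not searched, so a window without a match may still hold one. GGGNNTTNCC, present in 5.68% of windows, stood in HLA-B, TAP1 and B2M, and TTCNNNGAA, the gamma-activated site type found in 7.66% and not put in capitals, stood at the second PSMB8 and second TAP1 starts. A match is a run of letters, and whether any factor was bound there was not measured.

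With FKA the 9 genes changed in both directions, also within the heavy chains. HLA-E and B2M were higher, HLA-B and HLA-C were lower, all 3 immunoproteasome subunits were lower, and of the transporter TAP2 was lower while TAP1 did not pass the test. A gene counts as called where its adjusted p from the quasi-likelihood test of edgeR, adjusted over all 13531 tested genes, was under 0.05. Levels are CPM, read counts relative to library size after scaling by TMM, the trimmed mean method of edgeR. All 9 genes were tested, 2 were called higher and 6 lower, and their median log2 fold change was -0.40 against 0.01 for all tested genes. In this series 59.8% of tested genes were called, 29.3% higher and 30.5% lower, so 8 called of 9 is a share to be read against a very broad change. On TMM-scaled CPM the control and FKA libraries did not overlap for 8 of the 9 genes, against 67.3% of tested genes. In FPKM, which holds no TMM scaling, the libraries of PSMB9 and PSMB10 did overlap.

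**Figure D1:**
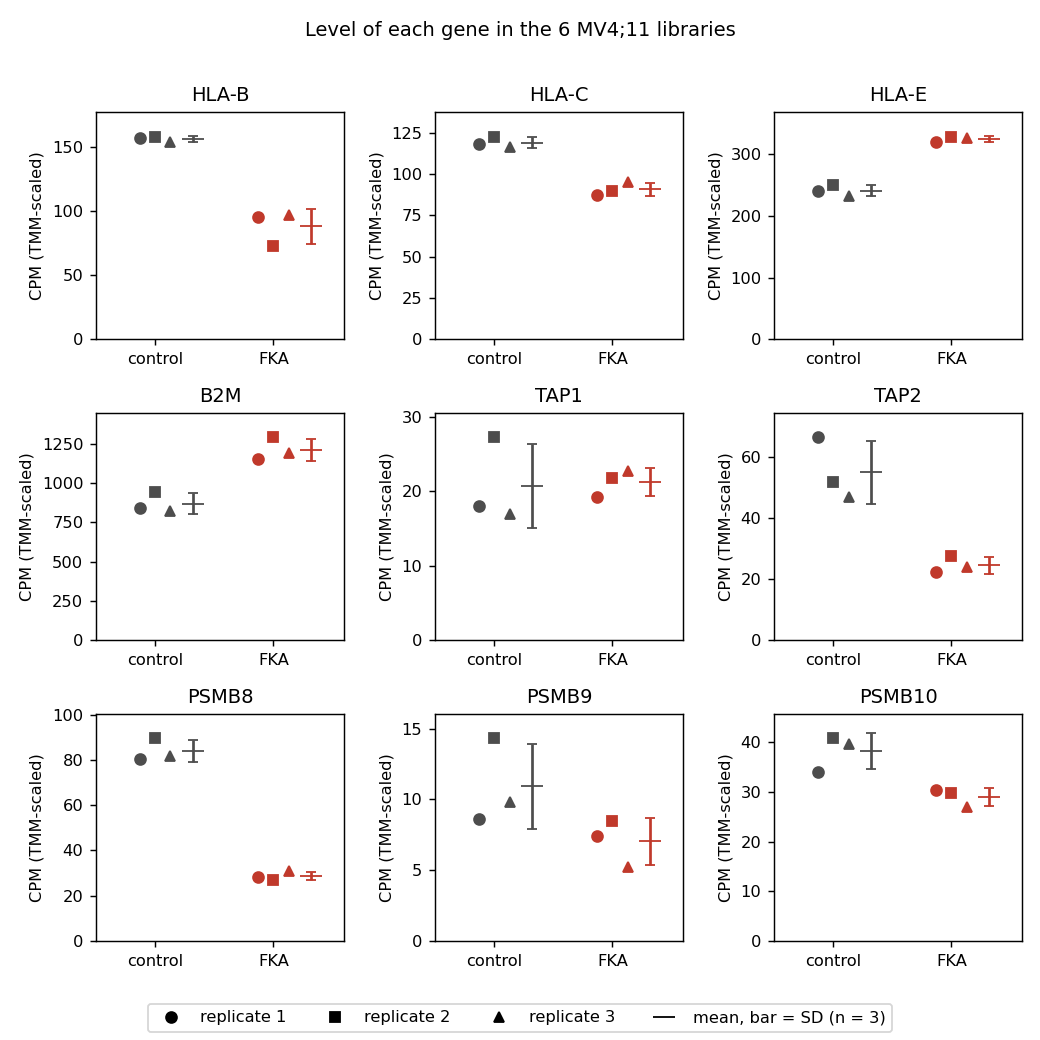
Each panel shows 1 gene, with TMM-scaled CPM on a linear axis from 0, a symbol for each control and FKA library, and the mean with its SD over 3 libraries beside them. All FKA points lie above the control points for HLA-E and B2M, all lie below for 6 genes, and those of TAP1 fall within the range of its controls.

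Levels between genes can be compared per length, by FPKM. In control libraries B2M led with 290 ± 32.1 FPKM (SD, n = 3), followed by HLA-B with 96.2 ± 4.30 FPKM, HLA-E with 77.4 ± 5.39 FPKM and HLA-C with 73.1 ± 4.50 FPKM. PSMB8 and PSMB10 stood at 52.2 ± 4.99 and 37.0 ± 4.60 FPKM, and PSMB9, TAP2 and TAP1 at the bottom with 10.2 ± 3.21, 8.46 ± 1.43 and 6.94 ± 2.15 FPKM. The libraries of HLA-E and HLA-C overlapped, as did those of PSMB9, TAP2 and TAP1, so the order among those neighbours lies within their spread. In FKA libraries the order was B2M (451 ± 30 FPKM), HLA-E (116 ± 2.35 FPKM), HLA-C (62.2 ± 2.45 FPKM), HLA-B (60.6 ± 8.83 FPKM), PSMB10 (31.4 ± 2.13 FPKM), PSMB8 (19.9 ± 1.10 FPKM), TAP1 (7.88 ± 0.684 FPKM), PSMB9 (7.31 ± 1.78 FPKM) and TAP2 (4.22 ± 0.497 FPKM). By FPKM, HLA-B moved from first to last of the 3 heavy chains, with values that overlapped those of HLA-C, and PSMB8 fell below PSMB10. By CPM, HLA-E stood above HLA-B in both groups, so their order depends on the gene lengths used. FPKM was scaled by the authors to library totals and not by TMM, which moves the fold changes between groups as described further on.

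HLA-B, a classical heavy chain and the most polymorphic class I gene, stood at 157, 158 and 154 CPM in control 1, 2 and 3 and at 95.5, 72.6 and 96.7 CPM in FKA 1, 2 and 3. The controls lay within a narrow range and every FKA library was lower, FKA 2 lowest. The fitted log2 fold change was -0.82 (SE 0.116, adjusted p = 0.000351 by edgeR), from 156 ± 2.35 to 88.2 ± 13.6 CPM (SD, n = 3). Within batches 1, 2 and 3 the log2 difference was -0.72, -1.12 and -0.67. HLA-B was lower and called under all 17 alternatives, at -0.89 to -0.67.

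HLA-C, the classical heavy chain that is the main ligand of inhibitory killer-cell receptors, fell less. Its level was 118, 123 and 116 CPM in control 1 to 3 and 87.6, 89.7 and 95.4 CPM in FKA 1 to 3. No FKA library reached the lowest control. Its log2 fold change was -0.39 (SE 0.0783, adjusted p = 0.00241 by edgeR) and the within-batch differences were -0.43, -0.45 and -0.29. Some of the 50-base stretches of the HLA-C and HLA-B transcripts also occur in other genes of GENCODE release 29, 5.70% and 17.8% of them, the latter mostly in the pseudogene AL671883.2. How reads of such stretches were counted is not given in the sources used here, and neither are the alleles of the line, so values of the polymorphic heavy chains carry that uncertainty.

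HLA-E, the heavy chain of limited variation that natural killer cells read through NKG2A, went the other way. Control 1 to 3 stood at 240, 250 and 232 CPM and FKA 1 to 3 at 320, 328 and 325 CPM. The 3 FKA libraries lay close together and above every control, with a log2 fold change of 0.43 (SE 0.0825, adjusted p = 0.00190 by edgeR), a 1.35-fold level, with 0.41, 0.39 and 0.49 within batches. Only 4.87% of the 50-base stretches of HLA-E occur in another gene.

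B2M, the light chain that every class I heavy chain needs to reach the surface, had the highest level of the 9 genes. It stood at 842, 944 and 822 CPM in control 1 to 3 and at 1155, 1291 and 1193 CPM in FKA 1 to 3. The second library was highest in both groups and the groups did not overlap. The log2 fold change was 0.48 (SE 0.103, adjusted p = 0.00351 by edgeR), a 1.40-fold level, with 0.46, 0.45 and 0.54 within batches. None of its 6412 stretches of 50 bases is shared with another gene.

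HLA-E and B2M kept a similar size but lost their call when FKA 2 and FKA 3 were left out together, with log2 fold changes of 0.40 each and adjusted p of 0.0710 and 0.122 by edgeR. That fit has 1 FKA library, which is assumed to vary like the controls. Those libraries were set apart because the summed level of 13 fibroblast and mesenchymal markers was 61.2 and 55.7 CPM in FKA 2 and FKA 3, against 3.26 CPM in FKA 1 and 2.47 to 13.8 CPM in controls, and none of the markers was at 0 in all libraries of a group. FN1, the most abundant of them, stood at 25.0 and 22.8 CPM in FKA 2 and FKA 3, at 0.590 CPM in FKA 1 and at 5.47, 4.69 and 0.535 CPM in control 1 to 3, while COL1A2 and COL3A1 were at 0 in FKA 1. FKA 1 alone had 320 CPM of HLA-E and 1155 CPM of B2M, above all controls. The part of the markers in the results was not tested.

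The ratio between genes of 1 library does not depend on how libraries are scaled. HLA-E to HLA-B, per length, was 0.795, 0.826 and 0.789 in control 1 to 3 and 1.75, 2.36 and 1.75 in FKA 1 to 3. The side of 1 on which such a ratio lies depends on the gene lengths used. Those were 2948 bases for HLA-E and 1536 bases for HLA-B. In CPM, HLA-E stood above HLA-B in control 1 to 3 as well, at 240, 250 and 232 against 157, 158 and 154 CPM. HLA-B to HLA-C was 1.33, 1.29 and 1.33 in control 1 to 3 and 1.09, 0.812 and 1.02 in FKA 1 to 3. B2M to the geometric mean of the 3 heavy chains rose from 3.44, 3.75 and 3.44 to 5.59, 6.74 and 5.56. These ratios were picked with the genes' changes known and are given with no test.

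TAP1, the transporter subunit whose gene shares its start region with PSMB9, showed no call in either direction. It stood at 18.1, 27.3 and 17.02 CPM in control 1 to 3 and at 19.2, 21.9 and 22.8 CPM in FKA 1 to 3. Control 2 was the highest of the 6 libraries and the groups overlapped. The log2 fold change was 0.03 (SE 0.185, adjusted p = 0.888 by edgeR), with 0.09, -0.32 and 0.42 within batches and -0.13 to 0.27 over the 17 alternatives, under all of which it was not called.

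TAP2, the partner subunit, had 66.4, 51.6 and 46.7 CPM in control 1 to 3 and 22.2, 27.4 and 23.8 CPM in FKA 1 to 3. Every FKA library was below every control, control 1 being highest, and the log2 fold change was -1.17 (SE 0.148, adjusted p = 0.000200 by edgeR), with -1.58, -0.91 and -0.97 within batches, and it was called under all 17 alternatives. The mean level fell by 55.4%. The TAP1 to TAP2 ratio per length was 0.585, 1.14 and 0.783 in control 1 to 3 and 1.86, 1.71 and 2.05 in FKA 1 to 3, without overlap. Of the TAP2 stretches of 50 bases, 31.3% also belong to AL669918.1, a read-through transcript of TAP2 and HLA-DOB, which could share reads with both genes.

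PSMB8, the chymotrypsin-like immunoproteasome subunit that takes the place of PSMB5, changed most of the 9 genes. It stood at 80.6, 89.7 and 81.6 CPM in control 1 to 3 and at 28.4, 27.1 and 30.7 CPM in FKA 1 to 3. Both groups were tight and far apart, with a log2 fold change of -1.55 (SE 0.0945, adjusted p = 6.35e-06 by edgeR), with -1.51, -1.73 and -1.41 within batches and -1.60 to -1.35 over the 17 alternatives. The mean level fell by 65.8%, and of all tested genes 7.63% had a lower fold change.

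PSMB9, the subunit that takes the place of PSMB6, had the lowest counts of the 9, between 181 and 513 reads per library. It stood at 8.62, 14.3 and 9.82 CPM in control 1 to 3 and at 7.42, 8.44 and 5.21 CPM in FKA 1 to 3. Control 1 and FKA 2 were close to each other, although the groups did not overlap on this scale. In FPKM they overlapped, with 7.81 in control 1 and 8.86 in FKA 2. The log2 fold change was -0.64 (SE 0.244, adjusted p = 0.0469 by edgeR), with -0.22, -0.76 and -0.91 within batches. Its direction held under all 17 alternatives but the call only under 6 of them. It was lost without control 2 (-0.40), which held the highest level, and also without control 3, FKA 1 or FKA 3.

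PSMB10, the trypsin-like subunit that takes the place of PSMB7 and the only one of the 3 outside the MHC, on chromosome 16, stood at 34.0, 40.9 and 39.6 CPM in control 1 to 3 and at 30.3, 29.8 and 27.0 CPM in FKA 1 to 3. All FKA libraries were below the controls on this scale, with a narrow gap between FKA 1 and control 1. In FPKM the groups overlapped, with 32.1 in control 1 and 32.7 in FKA 1. The log2 fold change was -0.40 (SE 0.110, adjusted p = 0.0123 by edgeR), with -0.17, -0.45 and -0.55 within batches, and the call held under 11 of 17 alternatives. Without FKA 3 it was -0.34 (adjusted p = 0.0508 by edgeR). Of its 50-base stretches, 27.5% also belong to AC040162.1, a read-through transcript with the neighbour CTRL.

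**Figure D2:**
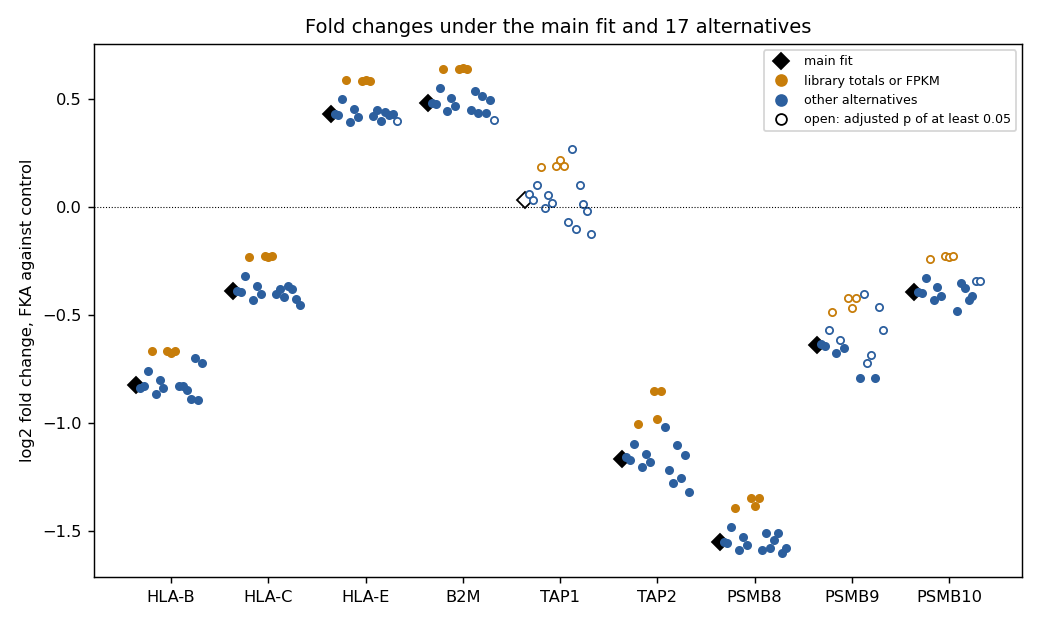
Fitted log2 fold changes of FKA against control are shown for each gene, as a diamond for the reported fit and circles for 17 alternatives, open where the adjusted p was at least 0.05. HLA-B, HLA-C, TAP2 and PSMB8 stay filled under all alternatives, TAP1 is not filled under any, and PSMB9 is filled under 6 of 17.

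Scaling by library totals alone, as in the FPKM table, moved all genes up together. Under it the median log2 fold change of all tested genes was 0.17 in place of 0.01, and 4993 genes were called higher and 3282 lower, where TMM gave 3959 and 4131. The heavy chains then stood at -0.67 (HLA-B), -0.23 (HLA-C) and 0.59 (HLA-E), and PSMB9 and PSMB10 at -0.49 and -0.24 with adjusted p of 0.132 and 0.116 by edgeR. Relative to that median they were at -0.83, -0.40, 0.42, -0.66 and -0.41, against -0.83, -0.40, 0.42, -0.65 and -0.41 with TMM. Scaling moves each gene and the median together, so this likeness follows from the arithmetic and has no bearing on the lost calls.

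Each immunoproteasome subunit was then set against the constitutive subunit it replaces, per length within each library. PSMB8 to PSMB5 was 1.52, 1.78 and 1.75 in control 1 to 3 and 0.795, 0.707 and 0.807 in FKA 1 to 3. PSMB8 thus exceeded PSMB5 in every control and was below it in every FKA library, with PSMB5 itself also lower (log2 fold change -0.42). The mean log2 ratio went from 0.75 ± 0.13 to -0.38 ± 0.10 (SD, n = 3), a difference of -1.13 with p = 0.1 by a two-sided exact permutation test (0.3 after Benjamini-Hochberg adjustment over the 3 pairs), and 0.1 is the smallest p that 3 against 3 libraries allow.

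PSMB9 to PSMB6 was 0.206, 0.362 and 0.267 in control 1 to 3 and 0.200, 0.229 and 0.138 in FKA 1 to 3. The groups overlapped, and the difference in log2 ratio was -0.55 (p = 0.2, adjusted 0.3, by the same exact permutation test). It was -0.34 without control 2 and also without FKA 3. PSMB10 to PSMB7 was 0.359, 0.519 and 0.433 in control 1 to 3 and 0.447, 0.497 and 0.393 in FKA 1 to 3. This ratio differed by 0.04 on the log2 scale (p = 0.9, adjusted 0.9, exact permutation test), with PSMB7 lower by nearly the same amount as PSMB10 (-0.43 against -0.40). PSMB6, by contrast, was not called (-0.08, adjusted p = 0.493 by edgeR).

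**Figure D3:**
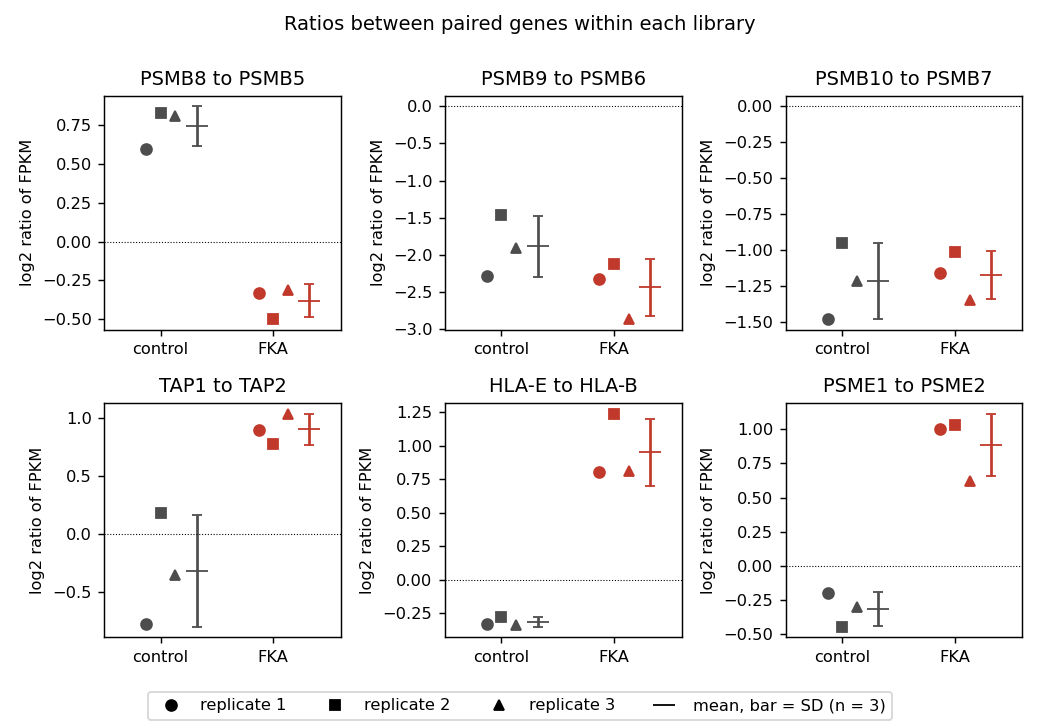
Each panel shows the log2 ratio of the FPKM of 2 genes within each library, with symbols for replicates and the mean with its SD over 3 libraries, on axes that differ between panels. PSMB8 to PSMB5 changes sign between the groups, PSMB9 to PSMB6 and PSMB10 to PSMB7 overlap, and TAP1 to TAP2, HLA-E to HLA-B and PSME1 to PSME2 are higher in all FKA libraries.

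The heavy chains as a group were compared with the transporter and immunoproteasome genes as a group, by the geometric means of their FPKM in each library. The ratio of HLA-B, HLA-C and HLA-E to the other 5 (TAP1, TAP2, PSMB8, PSMB9 and PSMB10) was 5.36, 4.55 and 5.36 in control 1 to 3 and 7.23, 6.18 and 7.73 in FKA 1 to 3. All FKA libraries were above the controls, by 0.47 in mean log2 ratio. Against the immunoproteasome alone the difference was 0.59 without overlap, and against TAP alone 0.28 with overlapping libraries. B2M to the same 5 genes went from 18.4, 17.1 and 18.4 to 40.4, 41.6 and 43.0. The group means hide opposite members, since HLA-B fell while HLA-E rose and TAP2 fell while TAP1 was not called.

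The genes of TAP2, PSMB8, TAP1 and PSMB9 lie side by side in the MHC class II region. Their RefSeq starts follow each other on chromosome 6 after that of HLA-DOB, a class II chain, and the antisense transcript PSMB8-AS1 starts on the other strand with 38 bases between its start and the second PSMB8 start. The GAAANNGAAA match at the end of the PSMB8 line is 1 site with that at -44 to -35 of PSMB8-AS1. TAP1 and PSMB9 are transcribed away from each other from starts with 487 bases between them, and their printed lines overlap at their 5′ ends.

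HLA-DOB stood at 22.1, 16.8 and 13.6 CPM in control 1 to 3 and at 5.62, 5.81 and 5.98 CPM in FKA 1 to 3 (log2 fold change -1.59, SE 0.192, adjusted p = 0.000153 by edgeR). PSMB8-AS1 stood at 14.5, 24.8 and 20.5 CPM and at 9.04, 9.19 and 6.10 CPM (-1.30, SE 0.231, adjusted p = 0.00125 by edgeR). Along the region the FKA mean was 33.2% of the control mean for HLA-DOB, 44.6% for TAP2, 34.2% for PSMB8 and 40.7% for PSMB8-AS1, then 102% for TAP1 and 64.3% for PSMB9. TAP1 was the gene without a fall in this row, and PSMB9 lay between, with its FKA 3 library at 47.7%, as low as libraries of TAP2. PSMB9 to TAP1 per length went from 1.34, 1.47 and 1.62 to 1.09, 1.08 and 0.642. Because the use of strand in counting is not given, reads of PSMB8 and PSMB8-AS1, which share 18.2% of the 50-base stretches of PSMB8, cannot be told apart, and the same holds for TAP2 and HLA-DOB with their read-through transcript.

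**Figure D4:**
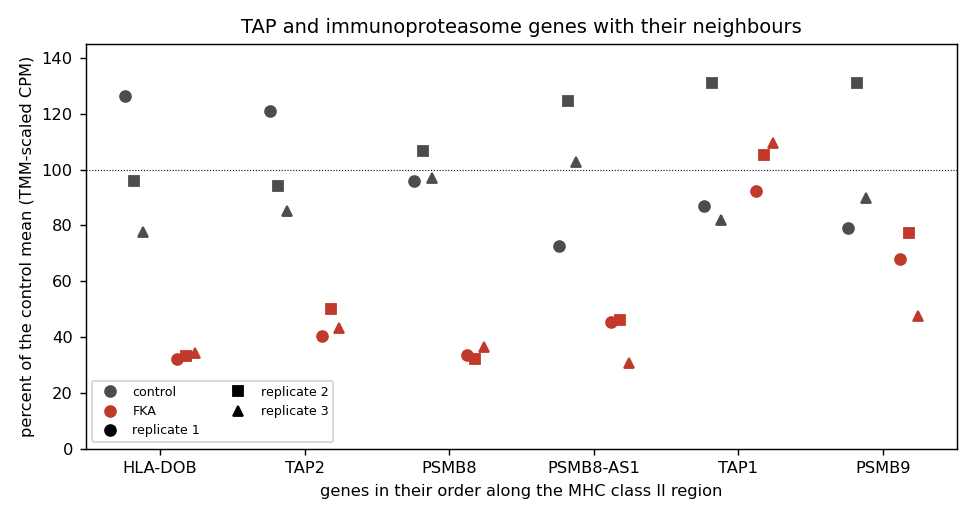
The level of each library is shown as percent of the control mean of its gene, for 6 genes in their order along chromosome 6, with symbols for replicates and the dotted line at 100. FKA libraries lie between 30.6 and 49.9 percent for HLA-DOB, TAP2, PSMB8 and PSMB8-AS1, between 47.7 and 77.2 percent for PSMB9, and between 92.4 and 109.5 percent for TAP1.

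Genes next to the other members moved otherwise. BRD2, a bromodomain gene in the class II region, and GNL1, a GTPase gene beside HLA-E, were higher (log2 fold change 0.24 and 0.40). CTRL, next to PSMB10, was not called (-0.32), and PSKH1, the next gene beyond it, was higher (0.37). Near B2M, TRIM69 was higher at a low level (1.78, from 0.144 to 0.514 CPM) and PATL2 was not called (0.06). The calls of BRD2, PSKH1 and TRIM69 were each lost when single libraries were left out, and that of BRD2 also with the replicate block (adjusted p = 0.0542 by edgeR). MICA, in the stretch near HLA-B, was higher (0.93) and HCP5 was not called (0.97, at 0.157 to 0.314 CPM).

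Other genes of class I presentation and its surroundings, from proteasome and peptidases to interferon response, class II and class I-like genes, were taken as lists by function. Of 118 listed genes 111 were in the tables and 100 were tested, with 31 higher, 31 lower and 38 not called, and a median log2 fold change of -0.09. Those shares are close to the ones of all tested genes given above. Without FKA 2 and FKA 3 together, 34 of the list genes were called, 17 in each direction, and of the 9 class I genes 4 were called, all lower, where that fit called 4619 of 14321 genes.

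Of 8 partners of the loading complex and trimming enzymes, 1 was higher and 1 lower, beside 29.3% higher and 30.5% lower of all tested genes. TAPBP, tapasin, which bridges TAP and the heavy chain, rose by 0.38 on the log2 scale, with 110, 97.6 and 96.3 CPM in control 1 to 3 and 127, 135 and 132 CPM in FKA 1 to 3. CALR, the lectin chaperone calreticulin of the same complex, fell by 1.98 on the log2 scale (SE 0.200, adjusted p = 6.19e-05 by edgeR), from 2296, 1459 and 1696 CPM to 449, 375 and 558 CPM. The remaining 6, among them the trimming peptidases ERAP1 and ERAP2, were not called and lay between -0.31 and 0.26. CALR also serves protein folding at large, as does HSPA5 of the same list (-0.31, not called).

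The share of all tested genes called lower was 30.5%, and higher 29.3%, against which the following counts stand. Of the other 11 subunits of the 20S core 4 were lower, led by PSMA6 (-0.91) and PSMB2 (-0.58), 1 was higher (PSMB4, 0.33) and 6 were not called, with a median of -0.20. Of 9 activators and assembly factors 6 were lower and 2 higher, with a median of -0.65. PSME1 and PSME2 encode the alpha and beta chains of the interferon-inducible PA28 cap, and they moved apart: PSME1 stood at 70.8, 58.1 and 56.8 CPM in control 1 to 3 and at 92.7, 81.2 and 82.8 CPM in FKA 1 to 3, while PSME2 went from 68.0, 66.2 and 58.7 to 38.7, 33.2 and 45.0 CPM. PSME1 was called higher (0.47, adjusted p = 0.00539 by edgeR) and PSME2 lower (-0.72, adjusted p = 0.00106). The assembly chaperones PSMG1 (-0.88), PSMG3 (-0.83) and PSMG2 (-0.65) fell, while PSMG4 rose (0.72). The call of PSMG4 was lost without control 2, control 3 or FKA 3. POMP, which the immunoproteasome needs for assembly, was at -0.35 and called, though not with library totals.

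Cytosolic and endosomal peptidases, which destroy or trim peptides, were 3 higher, 1 lower and 4 not called. NPEPPS, the puromycin-sensitive aminopeptidase, was higher by 1.21 and LNPEP, which trims peptides in endosomes, by 0.54, while THOP1, an oligopeptidase that degrades class I peptides, was lower by a log2 fold change of -1.10.

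**Figure D5:**
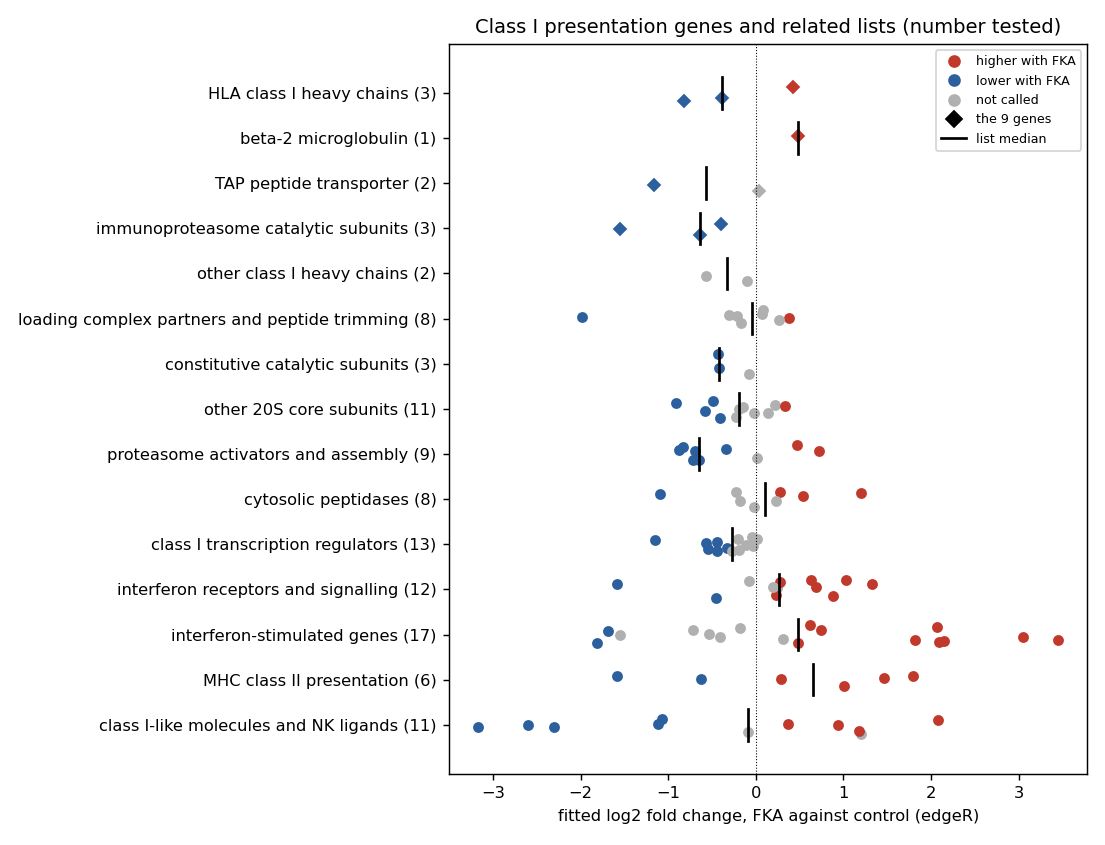
Fitted log2 fold changes of FKA against control are shown for the 9 genes (diamonds) and 100 tested genes of related lists (circles), 1 row per list with its number of tested genes, coloured by call, with a bar at the list median. Proteasome activators and assembly lie mostly below 0 (median -0.65), class I transcription regulators are lower or not called, and interferon receptors and signalling lie mostly above 0 (median 0.26).

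Of 13 regulators of class I transcription none was called higher, 6 were lower and 7 were not called, with a median of -0.28 against 0.01 for all tested genes, of which 29.3% were higher and 30.5% lower. The lower ones were among the subunits of complexes that bind the X and Y boxes: RFXAP (-1.16), RFX5 (-0.45) and RFXANK (-0.33) of the RFX complex, NFYC (-0.57) and NFYB (-0.55) of NF-Y, and ATF1 (-0.45). NFYA (-0.05) and CREB1 (-0.03), which bind the same boxes, were not called, and their sign turned with library totals. RFXANK and ATF1 were not called with library totals. RFXAP stood at 26.5, 25.5 and 28.0 CPM in control 1 to 3 and at 13.1, 10.7 and 12.1 CPM in FKA 1 to 3. NLRC5, the class I transactivator, was not called, at 44.0, 35.9 and 37.8 CPM in control 1 to 3 and 34.5, 37.9 and 36.1 CPM in FKA 1 to 3, and its log2 fold change of -0.12 turned to 0.05 with library totals. IRF1 was not called either, at 21.3, 44.6 and 35.0 CPM and at 27.9, 32.3 and 28.0 CPM (-0.20, adjusted p = 0.482 by edgeR), and without control 1 it was -0.45 with an adjusted p of 0.0174.

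Of 12 interferon receptors and signal carriers 7 were higher, 2 lower and 3 not called, beside 29.3% higher and 30.5% lower of all tested genes, and no test compared them. IRF9 (1.33) and STAT2 (1.03), partners in the factor that binds the interferon-stimulated response element, were higher, with STAT2 at 82.2, 75.6 and 82.4 CPM in control 1 to 3 and at 165, 157 and 169 CPM in FKA 1 to 3. SOCS1, an inhibitor of JAK kinases, fell by 1.59 on the log2 scale, and JAK1 was higher by 0.88.

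Of 17 tested interferon-stimulated genes 9 were higher, 2 lower and 6 not called, with a median of 0.48. GBP2 rose by 3.46 on the log2 scale, from 0.644, 1.70 and 0.982 CPM to 8.33, 19.0 and 9.64 CPM, and IFI6, IFIT1 and IFIT5 rose by 3.05, 2.15 and 2.10 from levels below 1 CPM. The rise of IFIT1 came from FKA 1 and FKA 2, at 1.46 and 1.47 CPM. FKA 3, at 0.317 CPM, stayed near its controls at 0.257, 0.196 and 0.268 CPM. WARS1 and XAF1, which had the higher levels in the list, fell by 1.81 and 1.69. Of all tested genes 29.3% were higher and 30.5% lower. Among the 9 class I genes, most of which interferon also induces, 2 were higher (B2M and HLA-E), 6 were lower and TAP1 was not called, and whether the 2 sets differ was not tested.

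The genes whose profile over the 6 libraries was closest to each member were found among 8942 genes with a mean of at least 10 CPM, by the Euclidean distance of centred log2 CPM. For HLA-B they were TMTC4 (0.127), NUDCD1 and LRRC58, and for HLA-C MTOR (0.0420), TERF2 and MRPS5. HLA-E was closest to STXBP2 (0.0761), ZNF768 and PDE3B, and B2M to DOK2 (0.0759), STX16 and TLE5. PSMB8 was closest to STRBP (0.129) and DIRAS1, PSMB10 to ZNF180 (0.0587), GTPBP1 and CSTF1, and PSMB9 to PPM1M (0.120), GPRC5C and SLX4IP. The profiles of TAP1 and TAP2 had no neighbour as near: TAP1 was closest to GTDC1 (0.228), TMEM205 and TRAF4, and TAP2 to EEF1B2 (0.233), SNHG29 and ITPR3. The 9 genes themselves were left out of the candidates, so these lists do not say how near they lie to each other. The points share their libraries, so the distances describe these 6 samples.

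The libraries held 29971171 to 36362421 counts. All 11 myeloid leukemia markers were above 0 in both groups, with a summed level of 2035 to 2093 CPM in controls and 2245 to 2358 CPM in FKA libraries. CEBPA was the most abundant of them. Within this sum the markers differed: 4 were called higher, 1 lower and 6 not, beside 29.3% higher and 30.5% lower of all tested genes. Markers of lymphocytes were low and lower with FKA: 4 of 8 T and NK markers were in the tables, summing to 21.5 to 24.3 CPM in controls and 9.38 to 9.73 CPM with FKA, nearly all of it NKG7, and 4 of 5 B cell markers summed to 20.6 to 27.3 and 7.30 to 9.67 CPM, nearly all of it PAX5. CD3D was at 0 in all FKA libraries and CD79B in all controls. Epithelial markers summed to 19.2 to 21.8 and 13.0 to 18.9 CPM. Their part in the class I results was not tested, and in bulk RNA fewer cells of a type and less RNA per cell cannot be told apart.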

How the data were processed

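RNA was measured by sequencing in 6 MV4;11 libraries, and RNA was extracted with a TransZol Up Plus kit, per the labels' protocols. Aligner, counter, annotation, library kit and strand use were not given in the sources used here. GRCm38 and mm10, both mouse builds, stand in the submitters' processing notes, while the gene symbols in the tables are human, so no coordinate of the tables was used. The authors deposited whole-number read counts per gene and FPKM values for the same 21857 genes. Recomputing the deposited FPKM from counts, library totals and 1 length for each gene left relative deviations of at most 6.90e-07, so FPKM holds no TMM scaling.

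Counts were tested in R 4.3.3 with the quasi-likelihood F test of edgeR 4.0.16 (filterByExpr by group, TMM, Benjamini-Hochberg over 13531 genes, threshold 0.05), and checked on simulated counts. The biological coefficient of variation was 15.4%. Replicates differed by more than sampling noise (chi-square per degree of freedom 21.7 to 66.3), so each was counted once. The labels give each batch 1 control and 1 FKA library, and the correlation of deviations from group means within batches 1 to 3 was 0.05, 0.35 and -0.08, so the batch was a block in an alternative. Ratios of FPKM were compared by a two-sided exact permutation test over 20 splits.

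Alternatives were the block, RLE, upper-quartile and library-total scaling, no filter or at least 1 CPM in 3 libraries, DESeq2 1.42.0, limma 3.58.1 on log2(FPKM + 1) and log2(FPKM + 0.1) and at a mean FPKM of at least 1, leaving out each library, and leaving out FKA 2 and 3 together. Start regions came from RefSeq (GRCh38.p14) and shared 50-base stretches from GENCODE release 29 transcripts, both strands. The 9 genes, the lists and the tests were chosen with earlier results of these data known. Named were all 9 genes, up to 4 called genes of each list with the largest change, or the most abundant where none was called, NLRC5 and IRF1, neighbouring genes, the most abundant marker of other cells and the 3 nearest profiles. ERAP1, ERAP2, HSPA5, POMP, RFX5, RFXANK, ATF1, NFYA, CREB1, WARS1, XAF1, PSMB6, CD3D, CD79B, COL1A2 and COL3A1 were named after their values were seen. So were PSME1, PSMB4, PSMG2, CD74, ULBP2, ULBP3 and MICB. Some genes that this rule names are not reported here.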

Additional observations from a re-analysis of the deposited data

How the results depend on the processing

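With batch as a replicate block, which the labels' pairing allows, 8289 genes were called and all 9 class I genes kept their side of the threshold (HLA-B -0.84, PSMB9 -0.63 with an adjusted p of 0.0197 by edgeR). Under 16 of 17 alternatives the numbers of called genes, class I genes and list genes stayed within 1.5 times the reported ones. The exception left out FKA 2 and 3 together, with 4619 genes, 4 class I genes and 34 list genes called from 4 libraries, and there HLA-E and B2M were both at 0.40 and not called. HLA-B, HLA-C, TAP2 and PSMB8 kept their call and TAP1 stayed uncalled under all 17. PSMB9 kept its direction and lost its call with upper-quartile scaling (-0.57), library totals (-0.49), a minimum of 1 CPM in 3 libraries (-0.62), and under limma with pseudocounts 1 (-0.42) and 0.1 (-0.47) or a mean FPKM of at least 1 (-0.42), and without FKA 2 and 3 (-0.57). Leaving out single libraries gave -0.79 to -0.40. PSMB10 lost its call with library totals (-0.24), limma (-0.23 under all 3 settings) and without FKA 2 and 3 (-0.34), and single libraries left out gave -0.48 to -0.34, the call being lost without FKA 3 (-0.34). The difference in log2 ratio of PSMB10 to PSMB7 turned from 0.04 to -0.0938 without control 1 and to -0.0428 without FKA 2, in a range of -0.0938 to 0.171 over single libraries left out, and that of PSMB9 to PSMB6 ranged from -0.75 to -0.34. Over the 17 alternatives the adjusted p ran from 1.45e-05 to 0.071 for HLA-E, 4.33e-05 to 0.122 for B2M, 0.0197 to 0.213 for PSMB9 and 0.00326 to 0.19 for PSMB10. Apart from the fits with fewer samples the cause was not tested. PSMB9 had the fewest reads of the 9 genes, 181 to 513 per library.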

Other observations

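Class I-like molecules and ligands of natural killer cells changed in both directions, 4 higher and 5 lower of 11 tested genes. Of all tested genes 29.3% were higher and 30.5% lower, and no test compared the list with them. FCGRT, the B2M-bound receptor that recycles IgG, was 4.24-fold higher, with 21.4, 17.9 and 19.8 CPM in control 1 to 3 and 78.0, 89.8 and 82.8 CPM in FKA 1 to 3 (log2 fold change 2.08, SE 0.106, adjusted p = 2.98e-06 by edgeR). MICA, a ligand of the NKG2D receptor, was higher by 0.93 on the log2 scale. ULBP1, another NKG2D ligand, fell by 2.60, from 16.3, 17.9 and 16.0 CPM to 3.85, 2.34 and 2.04 CPM, and PROCR fell by 2.31. RAET1E was at 0.482 CPM in the control mean and at 0.0495 CPM with FKA, too low for a precise fold. The NKG2D ligands in the list thus did not move one way.

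Of 15 listed genes of class II presentation 11 were in the tables and 6 were tested, 4 higher and 2 lower. These counts stand beside 29.3% higher and 30.5% lower of all tested genes, and no test compared them. HLA-DMA, which edits peptides on class II, rose from 0.804, 1.37 and 0.744 CPM to 2.80, 3.72 and 3.68 CPM (1.80 on the log2 scale). HLA-DQB1 was called at 1.46 with overlapping groups, at 0.644, 0.503 and 1.16 CPM in control 1 to 3 and 1.02, 2.31 and 3.02 CPM in FKA 1 to 3, and without FKA 2 and FKA 3 it was at 0.40 (adjusted p = 0.649 by edgeR). CD74, the invariant chain, fell by 0.63 from 51.0 ± 6.82 to 33.1 ± 2.19 CPM (SD, n = 3), and HLA-DOB by 1.59. The HLA-DQB1 and IFI30 (1.01) calls were each lost when 1 of 4 single libraries was left out, and that of IFI30 also with the replicate block.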
